A study of Homo sapiens with 6 samples.

Results

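SETD5 and 8 genes of its reported partner complexes were followed in Huh7 cells, a long-established line from a human hepatocellular carcinoma, after SETD5 was silenced by siRNA. The 9 genes were chosen by name and function and not by a cut on their values, but with earlier results of these data known. They were SETD5 and 4 genes of the HDAC3-NCoR corepressor (HDAC3, NCOR1, TBL1X and TBL1XR1). The others were 4 genes of the PAF1 elongation complex (PAF1, LEO1, CTR9 and CDC73). All 9 were among the 14200 genes of the deposited table, and all 9 were among the 12865 genes tested, those that averaged 1 CPM (a read count relative to library size) or more. The labels give 3 libraries of SETD5-deficient cells, made by siRNA transfection with RNAiMAX, and 3 libraries of control cells, all grown in DMEM with serum and read as poly(A)-selected, stranded mRNA. The sources used here do not give the treatment of the control cells, the siRNA sequences or the time after transfection. Nor do they say whether replicates were separate cultures, so p-values reflect the variation among these 6 libraries alone, and that variation may be technical.

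SETD5 is a chromatin protein with a SET domain, the fold that in many related proteins methylates histone lysines, and its closest human relative is KMT2E. In mouse cells the protein was found with the HDAC3-NCoR and PAF1 complexes. NCoR is a corepressor: NCOR1 forms a scaffold that binds unliganded nuclear receptors, activates the deacetylase HDAC3 and carries the WD40 proteins TBL1X and TBL1XR1. The PAF1 complex travels with RNA polymerase II and helps it to elongate and to mark transcribed chromatin. In liver, the HDAC3-NCoR complex is known from mouse work for holding back genes of lipid synthesis.

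The libraries held 14038447 to 17095417 reads, recovered from the deposited values. Each of the 9 genes had 796 to 3627 reads in every library. Counting error alone then gives a coefficient of variation of 1.84 to 3.38% for these genes, against 1.00 to 6.10% observed among libraries of a group. All 8 hepatocyte and hepatoma markers examined were present, at a summed level of 37954 to 38172 CPM in knockdown and 41222 to 42113 CPM in control libraries. Of 17 markers of leukocytes, endothelium, stromal cells, and HEK or HeLa cells, 10 were measured. The leukocyte markers summed to 3.31 to 3.38 CPM in knockdown and 4.67 to 4.80 CPM in control libraries, and the endothelial markers to 0.614 to 0.938 CPM in knockdown and 0.786 to 1.35 CPM in control libraries. The stromal markers, which include collagen genes, summed to 321 to 333 CPM in knockdown and 185 to 196 CPM in control libraries, and those of HEK or HeLa cells to 44.6 to 46.3 CPM in knockdown and 49.8 to 57.3 CPM in control libraries. Their part in the results below was not tested.

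The transcripts of both partner complexes were detected in every library. Of the HDAC3-NCoR genes, NCOR1 and TBL1X rose, and TBL1XR1 and HDAC3 fell. PAF1, LEO1, CTR9 and CDC73 all had negative log2 fold changes, from -0.32 for LEO1 to -0.03 for PAF1. Joint movement of a complex was not tested. Of the 9 genes, 2 were called higher after knockdown (NCOR1 and TBL1X), 5 were called lower (SETD5, LEO1, TBL1XR1, CDC73 and HDAC3) and 2 were not called (PAF1 and CTR9). A call is an adjusted p under 0.05 in limma, with the Benjamini-Hochberg adjustment over all 12865 genes. The same rule called 52.1% of all tested genes, 25.7% higher and 26.5% lower, so that a count of 7 in 9 says little by itself and the sizes of the changes carry more. Knockdown and control values did not overlap for 6 of the 9 genes, against 57.3% of all tested genes. The median absolute log2 fold change of all tested genes was 0.16. SETD5, TBL1X and LEO1 changed by more than that, and HDAC3, PAF1 and CTR9 by less. TBL1XR1, NCOR1 and CDC73 were close to it, with absolute changes larger than those of 51.7%, 47.6% and 47.9% of tested genes.

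**Figure D1:**
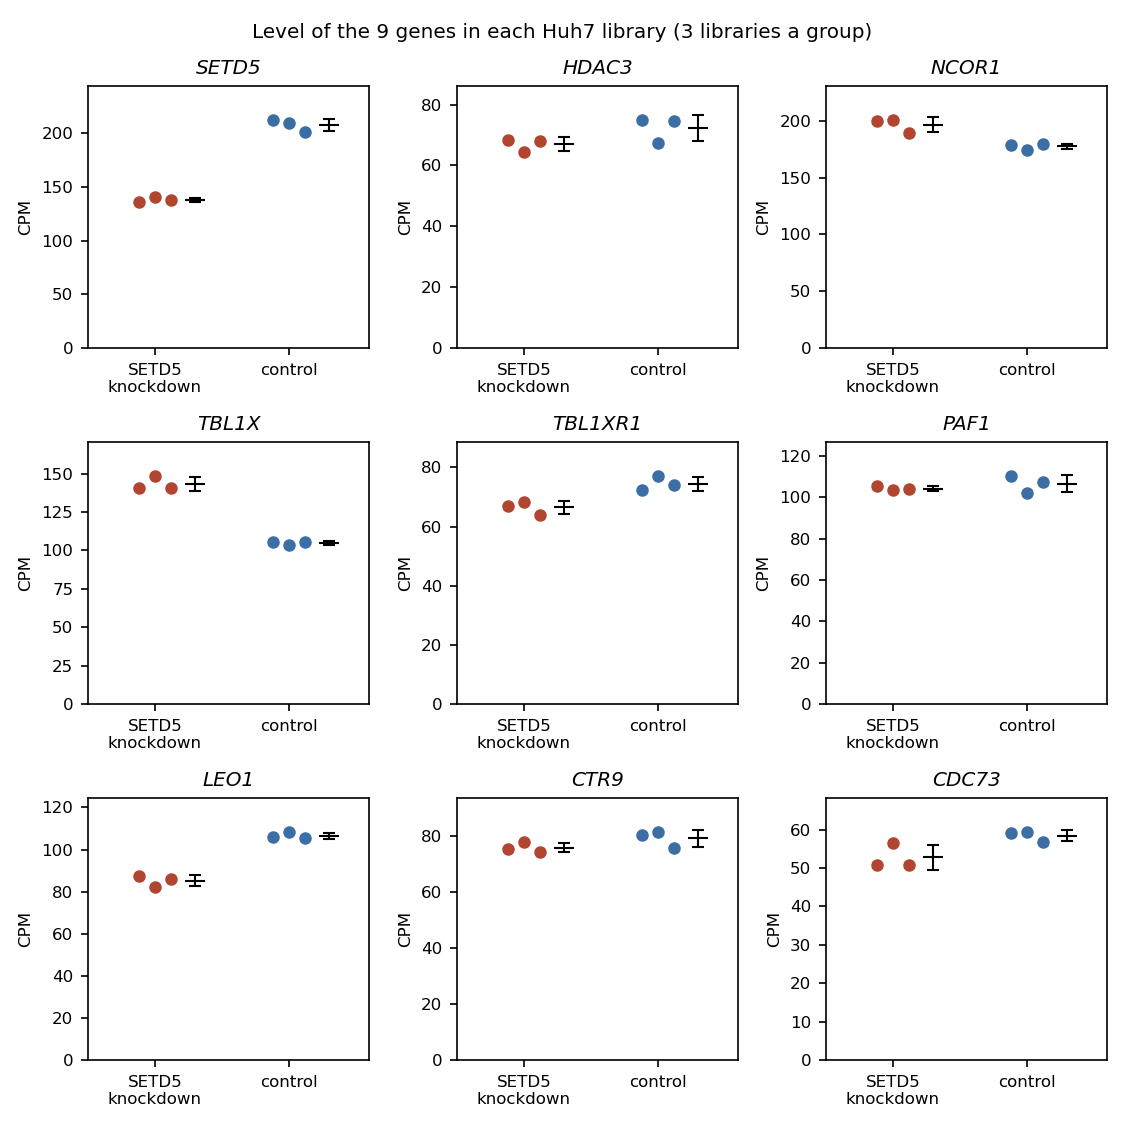
Level in CPM (y axis, from 0) of each of the 9 genes in the 3 SETD5 knockdown libraries (red points) and the 3 control libraries (blue points), with the group mean and its SD beside the points. SETD5 and LEO1 were lower and TBL1X was higher in every knockdown library, by gaps of 61.2, 18.1 and 34.8 CPM between the nearest libraries.

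SETD5, the target of the siRNA, had 136, 140.4 and 138 CPM in the knockdown libraries, against 212, 209.6 and 202 CPM in the control libraries. Every knockdown library lay below every control library, by 61.2 CPM between the nearest libraries. The means were 138 ± 2.21 CPM in knockdown and 208 ± 5.56 CPM in control (SD, n = 3 each), a ratio of 0.664. On the log2(CPM + 1) scale, which is used for all fold changes here, SETD5 fell by 0.59 (standard error 0.0318, 95% interval -0.65 to -0.52, limma adjusted p = 1.15e-17). An exact two-sided permutation test gave p = 0.1, the smallest that 3 against 3 libraries allow. The absolute change of SETD5 was larger than that of 93.4% of tested genes. In RNA from a whole culture, a smaller share of cells with the transcript and less of it per cell cannot be told apart.

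The genes beside SETD5 on chromosome 3 gave no common direction. THUMPD3, its protein-coding neighbour upstream, had 111 ± 3.99 CPM in knockdown and 106 ± 3.80 CPM in control libraries (SD, n = 3 each) and was not called (limma adjusted p = 0.142). THUMPD3-AS1, the noncoding RNA next to the SETD5 start, had 18.5 ± 1.59 CPM in knockdown and 21.5 ± 0.995 CPM in control libraries, a log2 fold change of -0.21 (limma adjusted p = 0.013). That call ended without control library 2 (0.0668) or knockdown library 2 (0.12), in an adjusted p range of 0.00858 to 0.12 over 14 alternatives. Farther along, the lipid phosphatase gene MTMR14 was higher (log2 fold change 0.17) and the DNA glycosylase gene OGG1 was lower (log2 fold change -0.28), while BRPF1 and CAMK1 were not called. Of the 9 neighbours looked for, 6 were tested, with a median log2 fold change of 0.06. No other gene shares exon bases with SETD5 in the basic annotation of GENCODE 29, the only set searched.

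KMT2E, the closest relative of SETD5, went the other way. It had 87.1, 84.6 and 90.8 CPM in the knockdown libraries, against 64.6, 66.7 and 66.5 CPM in the control libraries. The groups did not overlap, and the log2 fold change was 0.40 (standard error 0.0398, limma adjusted p = 9.46e-11). The ratio of SETD5 to KMT2E within a library, which does not depend on how a library was scaled, was 1.58 ± 0.0735 in knockdown and 3.15 ± 0.127 in control libraries (SD, n = 3 each). That is a difference of -0.999 on the log2 scale, with -1.12 to -0.87 between single libraries. The 2 transcripts share no 50-base word in GENCODE 29, and KMT2E-AS1 and AC005070.3 overlap KMT2E on the opposite strand over 1.99% and 0.628% of its exon bases.

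Among the tested genes of at least 5 CPM, the expression pattern closest to that of SETD5 over the 6 libraries was that of DHRS4, a short-chain dehydrogenase. Its log2 values, centred on their own mean, differed from those of SETD5 by a root mean square of 0.0143. DHRS4 had 25.8, 27.1 and 26.8 CPM in knockdown, against 40.8, 40.0 and 38.9 CPM in control libraries. XKR8, a scramblase of the plasma membrane, and OSTF1 came next, at 0.0258 and 0.0278. These 3 of 10693 candidate genes were picked by their values and are given as a description. Close paralogs of DHRS4 exist, and how reads were divided among them is uncertain.

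Within the HDAC3-NCoR complex, the WD40 subunit TBL1X rose and its paralog TBL1XR1 fell. TBL1X and TBL1XR1 are adaptors that bring ubiquitin ligase activity to the corepressor and help to exchange it for coactivators. TBL1X had 141, 148 and 141 CPM in the knockdown libraries, against 105, 104 and 106 CPM in the control libraries. Every knockdown library was above every control library, and the log2 fold change was 0.45 (standard error 0.0344, 95% interval 0.38 to 0.51, limma adjusted p = 2e-13). Its absolute change was larger than that of 88.2% of tested genes.

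TBL1XR1 had 67.1, 68.3 and 64.0 CPM in the knockdown libraries, against 72.4, 77.0 and 73.9 CPM in the control libraries. All knockdown values were below all control values, by 4.12 CPM between the nearest libraries. The log2 fold change was -0.16 (standard error 0.0412, limma adjusted p = 0.00124). The ratio of TBL1X to TBL1XR1 was 2.10, 2.17 and 2.20 in the knockdown libraries, against 1.46, 1.34 and 1.43 in the control libraries. The groups of ratios did not overlap, and the difference was 0.61 on the log2 scale, from 0.53 to 0.71 between single libraries. CPM are not corrected for transcript length, so the change of such a ratio can be read but not its size. The chosen transcripts of TBL1X and TBL1XR1 share no 50-base word, and no other gene was compared with either in this way.

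NCOR1, the scaffold that binds nuclear receptors and holds HDAC3 in its active form, had 200.1, 200.6 and 189 CPM in the knockdown libraries, against 178, 175 and 179 CPM in the control libraries. The groups did not overlap, and the log2 fold change was 0.15 (standard error 0.0317, limma adjusted p = 0.000202). GENCODE 29 holds the pseudogenes NCOR1P1, NCOR1P2 and NCOR1P3, which share 0.562% of the 50-base words of NCOR1, so few reads of NCOR1 could be split with them.

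HDAC3, the deacetylase of the complex, had 68.5, 64.4 and 68.2 CPM in the knockdown libraries, against 74.9, 67.3 and 74.7 CPM in the control libraries. Control library 2 lay within the range of the knockdown libraries, and the other control libraries lay above it. The log2 fold change was -0.11 (standard error 0.0439, limma adjusted p = 0.0414). The call held in 7 of 14 alternatives, with adjusted p from 0.00348 to 0.192, and ended without control library 1 or 3 (0.192 and 0.179) and without knockdown library 1 or 2 (0.0512 and 0.176). Median centring (0.066), quantile normalization (0.0716) and a fit with no mean-variance trend (0.16) ended it as well. An antisense gene, AC008781.1, overlaps 5.41% of the HDAC3 exon bases. The libraries are stranded but the use of strand in counting is not given, so reads of such overlaps may belong to either gene.

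CORO2A, an actin-binding member of the complex, had 71.9 ± 0.683 CPM in knockdown and 79.1 ± 1.27 CPM in control libraries (log2 fold change -0.14, limma adjusted p = 0.00352). GPS2, which limits inflammatory signalling as part of the complex, had 84.6 ± 2.40 CPM in knockdown and 79.6 ± 2.68 CPM in control libraries, without a call (limma adjusted p = 0.0598; SD, n = 3 each). It was called higher without control library 2 (limma adjusted p = 0.0349), under median centring (0.0364) and under quantile normalization (0.0459), in a range of 0.0349 to 0.271 over 14 alternatives. GPS2 shares 86.7% of its exon bases with a read-through gene, AC026954.2, so its reads may be split. Of the 6 subunits described, 2 were called higher, 3 lower and 1 was not called, and their median log2 fold change was -0.0093, against -0.0012 over all genes tested.

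**Figure D2:**
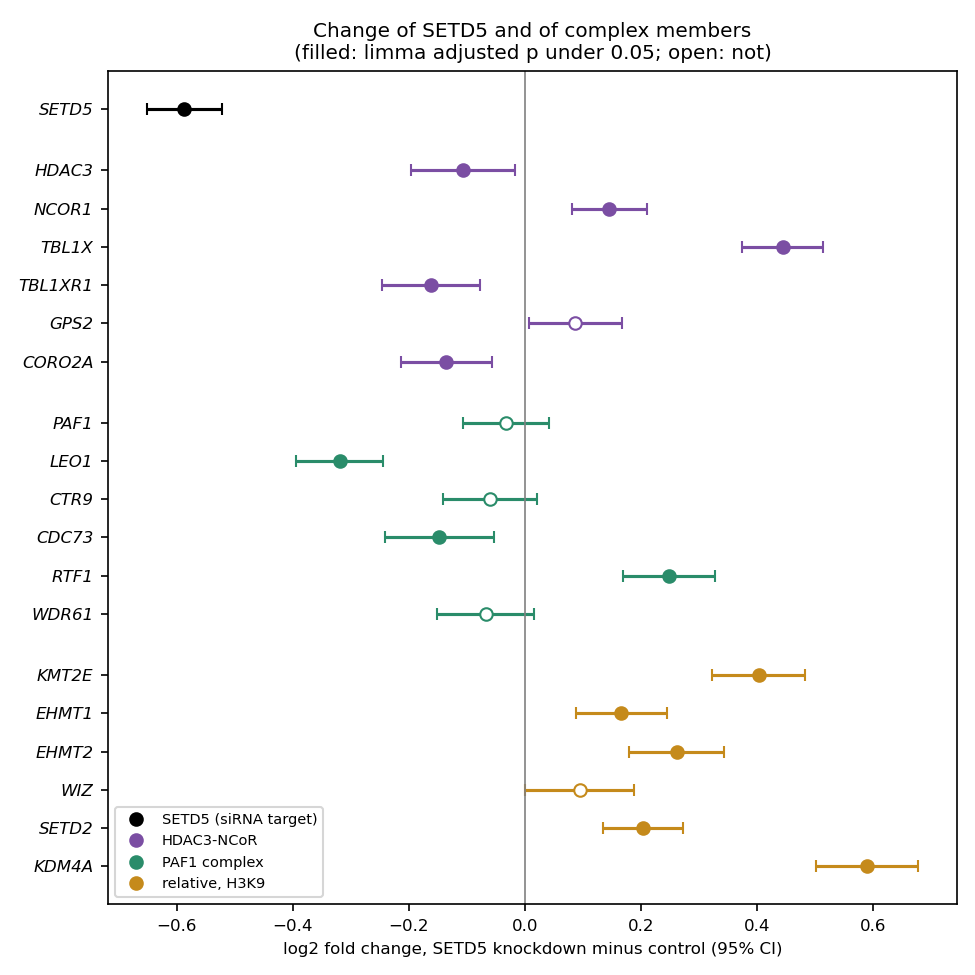
Log2 fold change of SETD5 knockdown minus control (x axis) with its 95% confidence interval from the limma fit, for SETD5 and the members of 3 gene lists, each row being a gene. Filled points passed the adjusted p of 0.05 and open points did not; TBL1X at 0.45 and NCOR1 at 0.15 lie right of 0, and TBL1XR1, CORO2A and HDAC3 lie left of it.

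In the PAF1 complex, LEO1 and CDC73 fell, RTF1 rose, and PAF1, CTR9 and WDR61 were not called. LEO1, which pairs with PAF1 in a heterodimer, had 87.3, 82.3 and 86.1 CPM in the knockdown libraries, against 106, 108 and 105 CPM in the control libraries. The highest knockdown library was 18.1 CPM below the lowest control library. The log2 fold change was -0.32 (standard error 0.0368, 95% interval -0.39 to -0.24, limma adjusted p = 3.56e-09). The change was larger than that of 78.7% of tested genes.

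PAF1, the partner of LEO1 and namesake of the complex, had 105, 103 and 104 CPM in the knockdown libraries, against 110.2, 102 and 107 CPM in the control libraries. The knockdown values lay inside the range of the control values. The log2 fold change was -0.03 with a 95% interval of -0.11 to 0.04 (limma adjusted p = 0.483). The ratio of LEO1 to PAF1 was 0.828, 0.796 and 0.829 in the knockdown libraries, against 0.961, 1.06 and 0.981 in the control libraries. Here too the groups did not overlap, and the difference was -0.29 on the log2 scale, from -0.41 to -0.21 between single libraries.

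CTR9, the scaffold on which the complex assembles, had 75.3, 77.6 and 74.2 CPM in the knockdown libraries, against 80.1, 81.2 and 75.7 CPM in the control libraries. The groups overlapped, and the log2 fold change was -0.06 with a 95% interval of -0.14 to 0.02 (limma adjusted p = 0.215). CDC73, the tumour suppressor parafibromin, had 50.9, 56.5 and 50.9 CPM in the knockdown libraries, against 59.2, 59.3 and 56.9 CPM in the control libraries. Knockdown library 2 stood apart from the other knockdown libraries and came within 0.415 CPM of the lowest control library. The log2 fold change of CDC73 was -0.15 (standard error 0.0462, limma adjusted p = 0.00757). That call ended without knockdown library 1 (adjusted p = 0.056) and in a fit with no mean-variance trend (0.0574), in a range of 0.000882 to 0.0574 over 14 alternatives.

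RTF1, the subunit that stimulates ubiquitination of histone H2B, had 99.9, 102 and 97.7 CPM in the knockdown libraries, against 83.1, 88.9 and 80.2 CPM in the control libraries. The groups did not overlap, and the log2 fold change was 0.25 (standard error 0.0393, limma adjusted p = 1.78e-06). WDR61, which the complex shares with the RNA-degrading SKI complex, had 73.6 ± 2.28 CPM in knockdown and 77.1 ± 3.35 CPM in control libraries (SD, n = 3 each) and was not called (limma adjusted p = 0.176). The antisense genes AC090607.1 and AC090607.5 overlap 8.18% and 6.46% of the WDR61 exon bases. Of the 6 subunits, 1 was called higher, 2 lower and 3 were not called, with a median log2 fold change of -0.06.

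Ratios within a library were taken for 8 pairs. In 5 of them the groups did not overlap: the 3 given above, NCOR1 to HDAC3 and TBL1X to HDAC3. The ratio of TBL1X to HDAC3 was 2.14 ± 0.141 in knockdown and 1.45 ± 0.0739 in control libraries, and that of NCOR1 to HDAC3 was 2.93 ± 0.172 in knockdown and 2.46 ± 0.119 in control libraries (SD, n = 3 each). The exact two-sided permutation test gave p = 0.1 for each of the 5, the smallest possible, and 0.16 adjusted over the 8 pairs. The ratios overlapped for TBL1XR1 to HDAC3 (log2 difference -0.06, from -0.29 to 0.13 between single libraries), for CDC73 to PAF1 (-0.12, from -0.27 to 0.04) and for CTR9 to PAF1 (-0.03, from -0.15 to 0.09). Exact permutation p-values of these 3 were 0.6, 0.3 and 0.7.

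**Figure D3:**
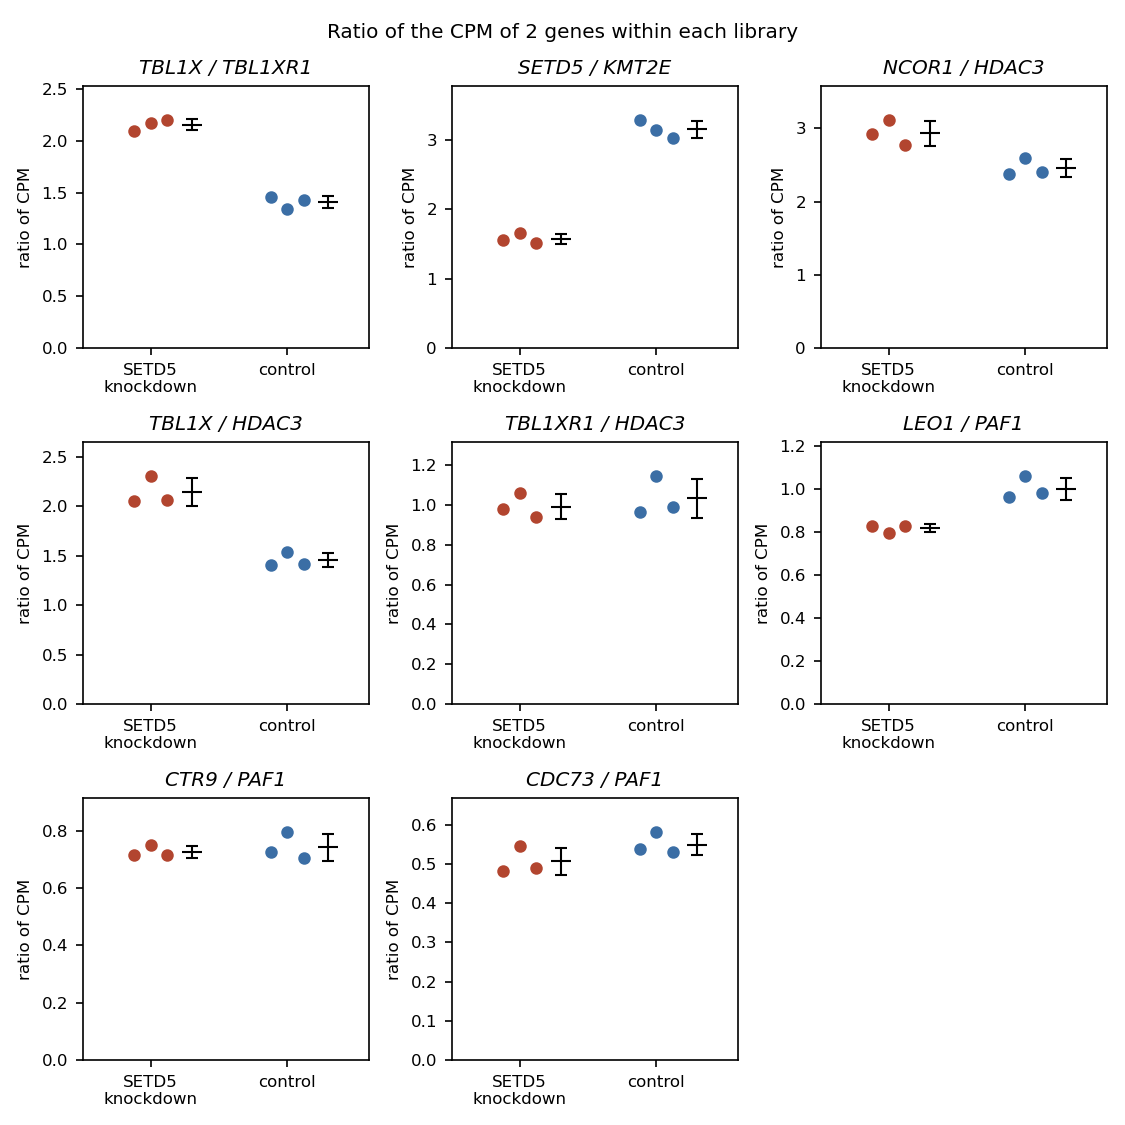
Ratio of the CPM of 2 genes within a library (y axis, from 0) for 8 pairs, in the 3 SETD5 knockdown libraries (red points) and the 3 control libraries (blue points), with the group mean and its SD beside the points. The TBL1X to TBL1XR1 ratio lay at 2.10 to 2.20 in knockdown and 1.34 to 1.46 in control libraries, and the CTR9 to PAF1 ratio overlapped between the groups.

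Levels were set against each other per kilobase of the GENCODE 29 transcript with the longest coding sequence, which may not be the isoform that Huh7 cells use. In knockdown libraries the order of the mean CPM per kilobase was PAF1 (50.4), LEO1 (38.9), HDAC3 (34.2), SETD5 (21.4), TBL1X (20.3), NCOR1 (18.3), CTR9 (16.5), CDC73 (8.65) and TBL1XR1 (8.36). In control libraries it was PAF1 (51.6), LEO1 (48.6), HDAC3 (36.9), SETD5 (32.2), CTR9 (17.2), NCOR1 (16.6), TBL1X (14.9), CDC73 (9.59) and TBL1XR1 (9.37). The ranges of CDC73 and TBL1XR1 overlapped in both groups and those of CTR9 and NCOR1 in the control; the other neighbours were separated. TBL1X thus stood above NCOR1 and CTR9 in knockdown libraries and below both in control libraries.

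A further list held the relative of SETD5 (KMT2E) and enzymes and partners of H3K9 and H3K36 methylation. Of its 6 genes, 5 were called higher after knockdown and none lower, with a median log2 fold change of 0.23. Of all tested genes, 25.7% were called higher and 26.5% lower, the background for the lists below as well. This list was chosen by function with earlier results of these data known. The sixth gene was WIZ, which recruits the H3K9 methyltransferases EHMT1 and EHMT2. The demethylase KDM4A had 82.8 ± 4.46 CPM in knockdown and 54.6 ± 1.75 CPM in control libraries (SD, n = 3 each), a log2 fold change of 0.59 (limma adjusted p = 5.97e-14). KDM4A-AS1 overlaps 9.50% of the KDM4A exon bases on the opposite strand, and the read-through gene AL451062.3 overlaps 46.4%. EHMT2, of whose exon bases EHMT2-AS1 overlaps 14.1%, rose with a log2 fold change of 0.26, EHMT1 with 0.17 and SETD2, the H3K36 methyltransferase, with 0.20. WIZ had 50.3 ± 0.404 CPM in knockdown and 47.1 ± 1.88 CPM in control libraries without a call (limma adjusted p = 0.0855), and was called higher under quantile normalization alone (0.0491) of 14 alternatives, in a range of 0.0491 to 0.276.

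The other histone deacetylases had no common direction, with 4 of 10 called higher and 3 lower. HDAC11, the class IV enzyme, had 7.14 ± 0.140 CPM in knockdown and 14.3 ± 0.722 CPM in control libraries (SD, n = 3 each), a log2 fold change of -0.91 (limma adjusted p = 3.61e-11). HDAC7, a class IIa enzyme that binds the NCoR complex, had 32.6 ± 0.489 CPM in knockdown and 25.2 ± 0.471 CPM in control libraries (limma adjusted p = 1.45e-06). HDAC9 had only 2.66 ± 0.523 CPM in knockdown and 1.86 ± 0.437 CPM in control libraries, with overlapping groups (limma adjusted p = 0.0372). The HDAC9 call ended without control library 1 or 3 (0.145 and 0.118), without knockdown library 1 or 2 (0.193 and 0.0914) and with no mean-variance trend (0.0757), in a limma adjusted p range of 0.0108 to 0.193 over 14 alternatives. HDAC1 had 194 ± 6.86 CPM in knockdown and 200.1 ± 3.37 CPM in control libraries and was not called (limma adjusted p = 0.242).

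The SIN3, CoREST, NuRD and MiDAC corepressors, which carry HDAC1 and HDAC2, were represented by 22 tested genes, of which 10 were called higher and 4 lower (45.5% and 18.2%), with a median log2 fold change of 0.11. The histone chaperone RBBP4 had 287 ± 6.31 CPM in knockdown and 205 ± 7.15 CPM in control libraries (log2 fold change 0.48). The CoREST subunits RCOR2 and KDM1A, a scaffold and a demethylase, rose with log2 fold changes of 0.38 and 0.31. SAP18 of the SIN3 complex had 116 ± 0.225 CPM in knockdown and 111 ± 3.28 CPM in control libraries (SD, n = 3 each) and was not called (limma adjusted p = 0.157).

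Of 25 tested nuclear receptors and other factors that recruit NCoR, 11 were called higher and 5 lower, with a median log2 fold change of 0.11. The retinoic acid receptor RARB had 9.46 ± 0.977 CPM in knockdown and 6.68 ± 0.155 CPM in control libraries, and the REV-ERB receptor NR1D2 40.6 ± 0.242 CPM in knockdown and 31.5 ± 1.54 CPM in control libraries. PPARD, a fatty acid sensor, fell with a log2 fold change of -0.53 (18.2 ± 0.250 CPM in knockdown and 26.9 ± 2.69 CPM in control libraries; SD, n = 3 each). NR2F2 had a log2 fold change of -0.07 and was not called (limma adjusted p = 0.127), except without control library 1 (0.0482), in a range of 0.0482 to 0.44 over 14 alternatives.

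Genes that the NCoR-HDAC3 complex is known to hold back in mouse liver were called higher in 3 of 18 tested and lower in 9 (16.7% and 50%), with a median log2 fold change of -0.11. The lipid droplet protein CIDEC had 1.06 ± 0.226 CPM in knockdown and 2.96 ± 0.198 CPM in control libraries, malic enzyme ME1 72.8 ± 2.42 CPM in knockdown and 109 ± 4.37 CPM in control libraries, and the lipogenic factor SREBF1 181 ± 9.43 CPM in knockdown and 235 ± 12.4 CPM in control libraries (SD, n = 3 each). All 3 were called lower, though CIDEC had only 14 to 47 reads in a library. The largest rise in this list was a log2 fold change of 0.32. The desaturase SCD had 2944 ± 42.0 CPM in knockdown and 2976 ± 31.5 CPM in control libraries, without a call (limma adjusted p = 0.623).

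Transcripts of elongation factors that work beside the PAF1 complex were called higher in 16 of 27 and lower in 2 (59.3% and 7.41%), with a median log2 fold change of 0.11. AFF4, the scaffold of the super elongation complex, had 127 ± 3.49 CPM in knockdown and 98.6 ± 1.40 CPM in control libraries, and its YEATS-domain subunit MLLT3 5.10 ± 0.0911 CPM in knockdown and 3.26 ± 0.613 CPM in control libraries. ELL, an elongation factor of the same complex, had 15.9 ± 0.563 CPM in knockdown and 21.2 ± 1.16 CPM in control libraries (limma adjusted p = 1.44e-05; SD, n = 3 each). SSRP1 of the histone chaperone FACT had a log2 fold change of 0.02 and was not called (limma adjusted p = 0.545).

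The enzymes of H2B ubiquitination and of H3K4 and H3K79 methylation, marks placed with the help of the PAF1 complex, were called higher in 12 of 19 and lower in 2 (63.2% and 10.5%), with a median log2 fold change of 0.13. KMT2A had 82.1 ± 5.57 CPM in knockdown and 58.5 ± 2.68 CPM in control libraries, and SETD1B 47.9 ± 1.32 CPM in knockdown and 38.0 ± 0.714 CPM in control libraries. The H2B ubiquitin ligase RNF40 had 111 ± 3.94 CPM in knockdown and 85.4 ± 3.52 CPM in control libraries (log2 fold change 0.37; SD, n = 3 each). WAC, which links RNF20 and RNF40 to the polymerase, had a log2 fold change of 0.08 and was not called (limma adjusted p = 0.0521). It was called higher under 6 of 14 alternatives, among them the fit without control library 2 (0.00995), in a limma adjusted p range of 0.00995 to 0.23. These lists were not tested as sets, and their counts stand beside the 25.7% higher and 26.5% lower of all tested genes.

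**Figure D4:**
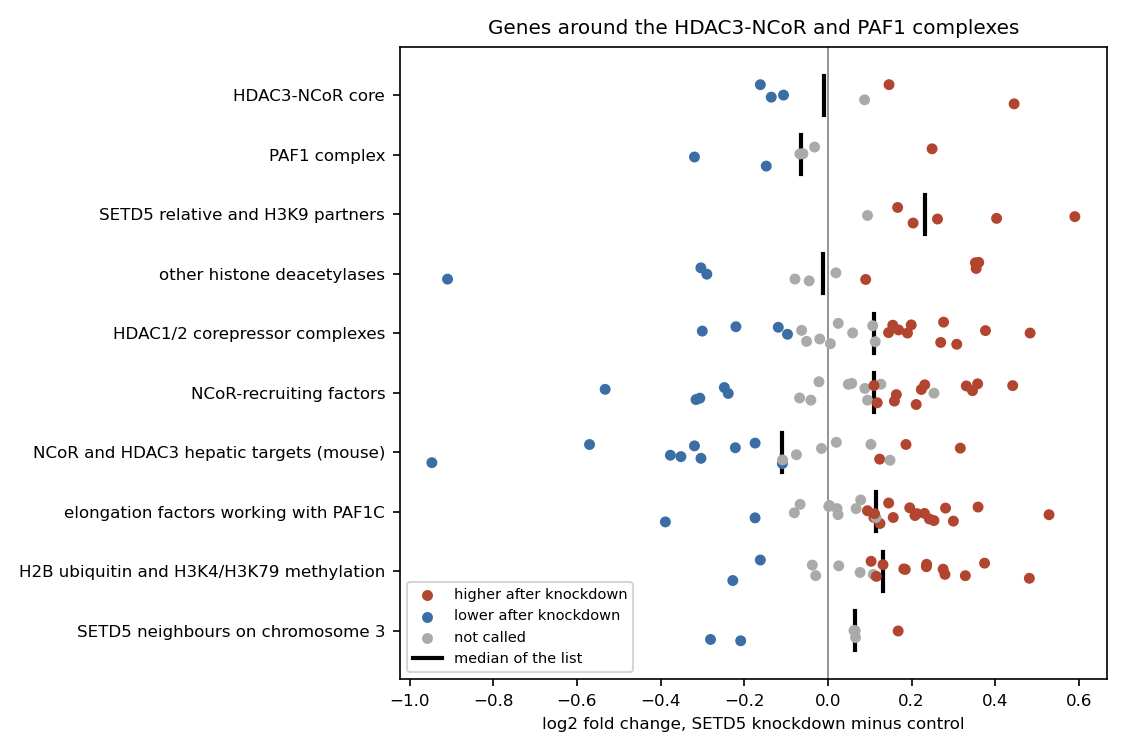
Log2 fold change of SETD5 knockdown minus control (x axis) for the tested genes of 10 gene lists, each list in a row with its points spread at random in height, and the median of each list as a black bar. Red points were called higher, blue points lower and grey points were not called; the medians of the elongation and H2B ubiquitin lists lie at 0.11 and 0.13, and those of the HDAC3-NCoR core and the PAF1 complex at -0.0093 and -0.06.

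The word GCACCT in 3' UTRs was looked for because earlier results of these data tied it to genes that fell. That choice rests on the same libraries, so the word is given here as a description of these transcripts alone. It was read on the transcript strand only, and 27.3% of tested genes with a 3' UTR in GENCODE 29 hold it. SETD5, HDAC3, NCOR1, TBL1XR1, PAF1, LEO1 and CTR9 hold no copy, and TBL1X, on chromosome X, and CDC73, on chromosome 1, hold 1 each. The sites, with the word in capitals and 10 bases on each side, begin at base 1289 of 3477 in the TBL1X 3' UTR and at base 1947 of 4103 in that of CDC73 (5' to 3', GENCODE 29 transcripts, GRCh38, sense strand):
TBL1X: tggtgtgtatGCACCTtggcagccag
CDC73: cttagtataaGCACCTctttttcttt
TBL1X was called higher and CDC73 lower. Of the 7 genes without a copy, SETD5, HDAC3, TBL1XR1 and LEO1 were called lower, NCOR1 higher, and PAF1 and CTR9 were not called. Among the other transcripts read for the word, RTF1 and EHMT1, both called higher, hold 1 copy each. Of all tested genes that hold the word, 24.3% were called higher and 34.5% lower. Of those without it, 28.0% were called higher and 24.4% lower. Since the word was chosen from these same libraries, that difference is no test of it. Of tested genes with a 3' UTR of similar length, 51.0% hold the word at the length of TBL1X and 58.9% at that of CDC73. The share was 67.6% at the length of TBL1XR1 and 47.0% at that of NCOR1, which hold no copy. For the other genes without a copy it was 4.70% (LEO1) to 38.7% (SETD5).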

How the data were processed

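Per the file's name, the authors deposited normalized CPM as log2 values, for 14200 genes and 6 libraries. Undoing the log with a pseudocount of 1 gave, in each library, whole multiples of what a single read is worth (100% of values within 0.01 of a whole number), so reads could be recovered. Per the submitters' processing notes, STAR 2.5.1 and R 3.3.0 and the builds hg19 and mm10 were used, without the step of each; the sources used here give no counting method, scaling, filter or use of strand. No coordinates are printed, since GENCODE 29 and the RefSeq table (used for names and neighbours) are of GRCh38.

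Genes averaging 1 CPM or more were tested with limma 3.58.1 in R 4.3.3 (mean-variance trend, group as the only term, two-sided, Benjamini-Hochberg over 12865 genes, threshold 0.05), and 1335 genes were left out. Python 3.11.15 with scipy 1.17.1 gave the exact permutation tests. The limma fit alone was tested on simulated data. Replicates of a group differed by a chi-square of 1.25 to 2.07 per gene. Each was treated as a library, and these values do not settle whether replicates were separate cultures. Transcript lengths and 3' UTRs came from 1 basic GENCODE 29 transcript a gene.

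The 9 genes and the 10 lists were chosen by function with earlier results of these data known. From each list the text names up to 3 called genes with the largest change and 1 further gene at the highest level among those not called, besides the members, the other listed subunits of both complexes, the neighbours and the genes of the ratio pairs; EHMT1 and SETD2 were added after their values were seen. One gene and the ratio planned with it are not reported here. The alternatives were a pseudocount of 0.1, no filter on low values, TMM scaling, median centring, quantile normalization, no trend, voom on recovered reads, a replicate block and leaving out each library.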

Additional observations from a re-analysis of the deposited data

How the results depend on the processing

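SETD5, NCOR1, TBL1X, TBL1XR1 and LEO1 kept their direction and their call in all 14 alternatives run, and PAF1 and CTR9 passed in none. The HDAC3 call ended at a log2 fold change of -0.10 under median centring and under quantile normalization and of -0.11 without the mean-variance trend, and its values without a library ran from -0.157 to -0.0783. The CDC73 call ended at -0.15 without the trend, and its values without a library ran from -0.20 to -0.12. The cause was not tested. Without control library 2, the log2 ratio differences of TBL1XR1 to HDAC3 and of CTR9 to PAF1 turned to 0.0198 and 0.0223. Over the libraries left out they ranged from -0.104 to 0.0198 and from -0.0651 to 0.0223. Calls were made for genes only and for no ratio. Genes called numbered 6706, and 5868 to 6898 under the alternatives; no list's count moved by over 1.5 times. Of 602 values of other named genes, 19 changed their call, in GPS2, HDAC9, NR2F2, THUMPD3-AS1, WAC and WIZ, and none turned. Scaling moved the median log2 fold change of all genes to 0.01 at most.

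Replicate numbers are shared by the labels, and whether they pair the libraries could not be settled from these values. Deviations of same-numbered libraries correlated at -0.0109, 0.0541 and 0.0417 over genes, and those of different numbers at -0.0596 to 0.0215. Numbers 2 and 3 but not number 1 correlated best with their own number. With the replicate block 6898 genes were called, and the log2 fold changes of SETD5 and HDAC3 were -0.59 and -0.11; GPS2 and WAC gained a call (adjusted p = 0.0448 and 0.0371), and no other named gene changed its call. edgeR and DESeq2 were not run, since the deposited unit is log2, although reads could be recovered and voom was run on them. Counts of 3 reads correspond to 0.176 to 0.214 CPM, far below any of the 9 genes, so depth limits mainly small differences.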
